A study of Mus musculus with 32 samples.

Results

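The 10 nephron segment transporter and receptor genes examined here were Slc34a1, Slc5a2, Lrp2, Cubn, Umod, Slc12a1, Slc12a3, Aqp2, Scnn1b and Scnn1g. They were chosen by name, as genes that mark the successive segments of the kidney tubule, from the 27179 genes of a table of MeDIP-seq values, and all 10 were found there once. MeDIP-seq sequences the DNA fragments that are caught by an antibody to 5-methylcytosine (5mC), so a higher value stands for more precipitated reads on a gene. The samples were FFPE kidney, frozen kidney, FFPE brain, frozen brain, FFPE heart, frozen heart, FFPE liver and frozen liver of mice. FFPE tissue was fixed in formalin and embedded in paraffin, and frozen tissue was flash-frozen after harvest. Strain, sex, age and genotype of the mice are not given in the labels. Each of the 8 organ and preservation groups had 1 column of values, called a library here, and no column gave a replicate within its group. No sorting of cells is stated in the labels, so each nephron segment made up only part of the kidney DNA.

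The nephron is the filtering unit of the kidney. Its proximal tubule takes back most of the filtered phosphate, glucose and protein, its thick ascending limb and distal convoluted tubule take back salt, and its collecting duct sets the final sodium and water content of urine. The proteins of these 10 genes carry out those steps, each mainly in 1 stretch of the tubule. Methylation around the promoters and enhancers of genes that mark a cell type is often lower in the cells that use the gene than elsewhere, while methylation inside gene bodies can go either way. MeDIP recovers fragments by their density of methylated CG sites, so a stretch with few CG sites gives few reads whatever its state. In bulk tissue, a small share of unmethylated cells and a partial loss of methylation in many cells cannot be told apart.

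The CG content of the promoters is shown here because MeDIP captures DNA by its methylated CG sites. Windows from 250 bases before to 50 bases after the start came from RefSeq (GRCm38.p6) and were found for 9 of the 10 genes, Slc5a2 being the other. The 4 below run from the lowest CG count to the highest, with CG sites in capitals and all else in lower case, 5′ to 3′ on the gene's strand. They lie at chr7:119479213-119479512 (Umod, minus strand), chr15:99578806-99579105 (Aqp2, plus strand), chr7:121734229-121734528 (Scnn1g, plus strand) and chr2:69585980-69586279 (Lrp2, minus strand).
Umod: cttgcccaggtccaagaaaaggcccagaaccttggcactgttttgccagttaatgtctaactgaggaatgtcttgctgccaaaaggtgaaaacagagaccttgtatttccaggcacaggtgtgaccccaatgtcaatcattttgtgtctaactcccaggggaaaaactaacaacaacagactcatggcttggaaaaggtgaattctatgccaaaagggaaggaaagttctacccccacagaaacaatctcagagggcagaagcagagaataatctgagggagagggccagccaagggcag
Aqp2: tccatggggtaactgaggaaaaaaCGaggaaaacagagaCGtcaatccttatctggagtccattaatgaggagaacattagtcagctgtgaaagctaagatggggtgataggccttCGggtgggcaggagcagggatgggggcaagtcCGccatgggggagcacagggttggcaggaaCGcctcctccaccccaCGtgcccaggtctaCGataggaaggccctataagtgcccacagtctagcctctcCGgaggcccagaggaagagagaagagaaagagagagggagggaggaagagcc
Scnn1g: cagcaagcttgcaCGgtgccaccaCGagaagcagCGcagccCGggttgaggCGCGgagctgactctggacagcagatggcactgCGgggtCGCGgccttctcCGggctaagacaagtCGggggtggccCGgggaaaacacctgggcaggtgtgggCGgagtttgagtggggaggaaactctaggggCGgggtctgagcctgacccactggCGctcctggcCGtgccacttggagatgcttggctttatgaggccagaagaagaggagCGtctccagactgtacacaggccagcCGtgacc
Lrp2: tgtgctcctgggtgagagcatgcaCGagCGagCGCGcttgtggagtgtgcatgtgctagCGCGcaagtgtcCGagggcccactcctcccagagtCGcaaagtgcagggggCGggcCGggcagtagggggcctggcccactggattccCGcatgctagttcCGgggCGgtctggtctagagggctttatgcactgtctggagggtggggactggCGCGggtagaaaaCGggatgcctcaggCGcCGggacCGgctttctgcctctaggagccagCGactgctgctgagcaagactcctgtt
The Umod window held 0 CG sites, which is the case for 5.43% of the 32851 windows of the same length in the RefSeq table. Slc34a1 had 2 CG sites, Slc12a3 had 4, Cubn and Slc12a1 had 5 each, Aqp2 had 8, Scnn1b had 10, Scnn1g had 18 and Lrp2 had 20, against a median of 7 over all windows. At least as many as in Lrp2 were held by 26.5% of windows. The motif searched was CG, which reads the same on both strands. The counted region of each gene is not given in the labels, so how far these windows contributed to the gene values was not tested.

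The reads counted on genes numbered 2164158 in FFPE kidney to 3699218 in frozen liver, and a count of 0 allows a signal of up to 0.876 to 1.42 CPM (3 reads, counting error only), CPM being reads scaled to the depth of the library. The 10 genes together took 0.0849% of the reads in FFPE kidney and 0.100% in frozen kidney, against 0.0825% to 0.113% in the other 6 libraries. Frozen kidney stood apart from the rest. It had 0 reads on 2999 genes, against 880 to 2380 elsewhere, and the widest spread of log2 values over genes (SD 2.67, against 1.75 to 2.60). Kidney differences among FFPE libraries alone leave this library out, and are given for most of the genes named.

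Per kilobase of gene span, the 10 genes ranged from 6.86 CPM for Slc5a2 to 0.533 CPM for Scnn1b, as means over the 8 libraries, and the median of 25271 placed genes was 1.43 CPM. Aqp2 (3.44 CPM per kilobase), Slc34a1 (3.01), Umod (2.56) and Lrp2 (2.20) followed Slc5a2. Slc12a3 and Slc12a1 were close at 1.77 and 1.76 CPM per kilobase, Scnn1g had 1.62 and Cubn had 0.887. The labels do not say whether reads were counted over exons or over whole gene bodies. This order therefore holds per kilobase of span only. It may differ per kilobase of exon, which was not computed, so it is not read as an order of methylation density. Values not divided by length are compared only within a gene from here on, since log2 CPM and gene span ranked alike over genes in each library (Spearman's rho 0.567 to 0.643 across genes, which are not independent replicates).

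**Figure D1:**
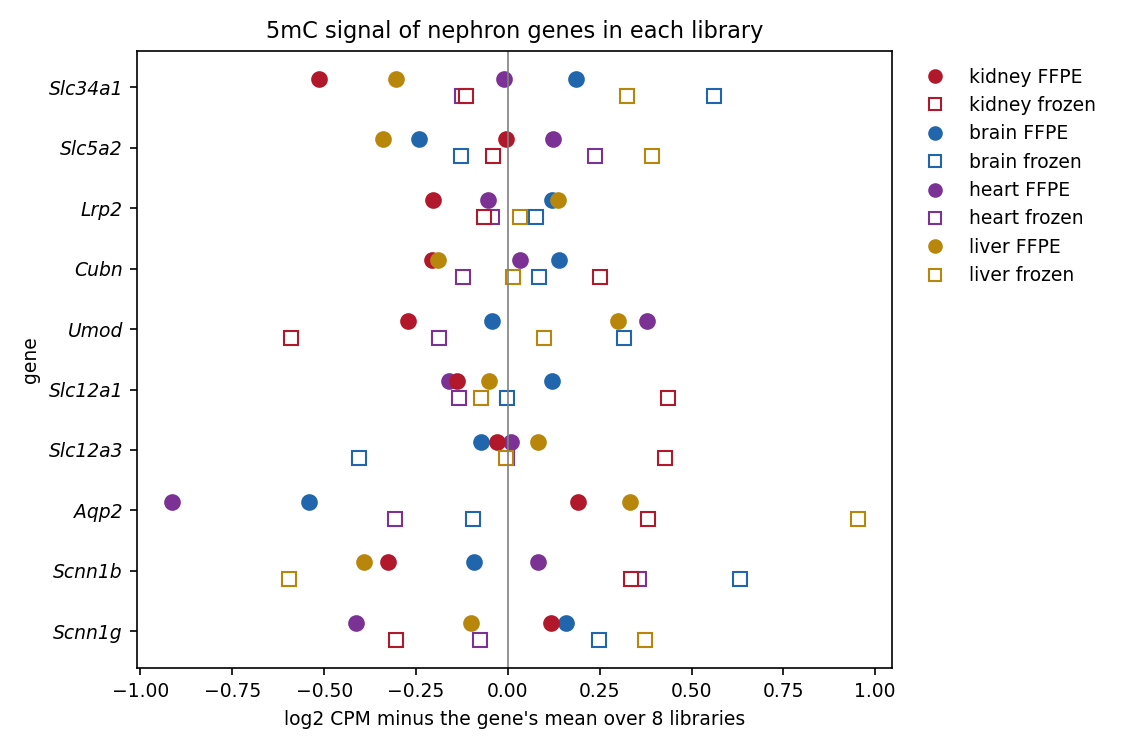
Signal of each gene in each library, as log2 CPM minus the gene's mean over the 8 libraries on the horizontal axis. Genes run down the page in nephron order, circles are FFPE and open squares frozen libraries, and colours mark the organ. Lrp2 varied 1.27-fold between its lowest and highest library and Aqp2 3.65-fold.

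No difference between kidney and the mean of brain, heart and liver passed the threshold for any of the 10 genes. The test was a limma fit of organ plus preservation over all 25982 genes, with a Benjamini-Hochberg adjusted p under 0.05 as the threshold. All 10 passed the filter on low values. Over all genes tested, 1.46% were called in this comparison, 0.897% higher and 0.566% lower in kidney, so a count of 0 in 10 genes lies near the background. At an unadjusted p under 0.05 there was 1 of the 10, Umod, against 18.6% of all genes. The differences were negative for 5 genes and positive for 5, with a median of -0.01 on the log2 scale, against -0.02 over all genes. The smallest difference that would have been called lay between 0.51 on the log2 scale for Lrp2 and 1.24 for Aqp2, so smaller differences were not detectable with these libraries.

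Among the proximal tubule genes, Slc34a1 encodes the main sodium-phosphate cotransporter of the brush border (chromosome 13, 55399622 to 55414695). It had 31.0 CPM in FFPE and 40.8 CPM in frozen kidney, against 50.3 and 65.2 CPM in FFPE and frozen brain, 43.9 and 40.5 CPM in heart, and 35.8 and 55.4 CPM in liver. FFPE kidney was the lowest of the 8 libraries, frozen kidney was level with frozen heart and above FFPE liver, and the groups overlapped. The kidney difference was -0.42 ± 0.20 (SE) on the log2 scale, with a 95% interval of -0.84 to 0.004 (limma adjusted p = 0.272). It was negative within both preservations, at -0.47 among FFPE and -0.37 among frozen libraries. For kidney minus brain alone it was -0.69 ± 0.24 (adjusted p = 0.0649 by limma), which did not pass the threshold.

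Slc5a2 encodes the glucose transporter SGLT2, which takes back most filtered glucose (chromosome 7, 128265683 to 128272430). Its signal was 45.6 CPM in FFPE and 44.5 CPM in frozen kidney, against 38.7 and 41.9 CPM in FFPE and frozen brain, 49.8 and 53.9 CPM in heart, and 36.2 and 60.0 CPM in liver. Both kidney libraries lay in the middle of the 8, and liver held both the lowest and the highest. Kidney minus the other organs came to -0.03 (95% interval -0.45 to 0.40).

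Lrp2 encodes megalin, the large endocytic receptor of the proximal tubule (chromosome 2, 69424335 to 69586029), and had the most reads of the 10 genes, 650 to 1287 per library. It had 307 CPM in FFPE and 339 CPM in frozen kidney, against 384 and 373 CPM in FFPE and frozen brain, 341 and 344 CPM in heart, and 389 and 362 CPM in liver. Both kidney libraries lay below all 6 others, although frozen kidney and FFPE heart were close. For Lrp2 the kidney difference was -0.18 ± 0.12 (95% interval -0.44 to 0.08; limma adjusted p = 0.461), with -0.27 among FFPE and -0.09 among frozen libraries.

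Cubn encodes cubilin, which binds filtered proteins and works with megalin (chromosome 2, 13276338 to 13491876). The signal was 165 CPM in FFPE and 226 CPM in frozen kidney, against 209 and 202 CPM in FFPE and frozen brain, 194 and 175 CPM in heart, and 167 and 192 CPM in liver. The 2 kidney libraries were the lowest and the highest of all 8. Over all libraries Cubn had a kidney difference of 0.03 (95% interval -0.28 to 0.33), with -0.20 among FFPE and 0.26 among frozen libraries.

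**Figure D2:**
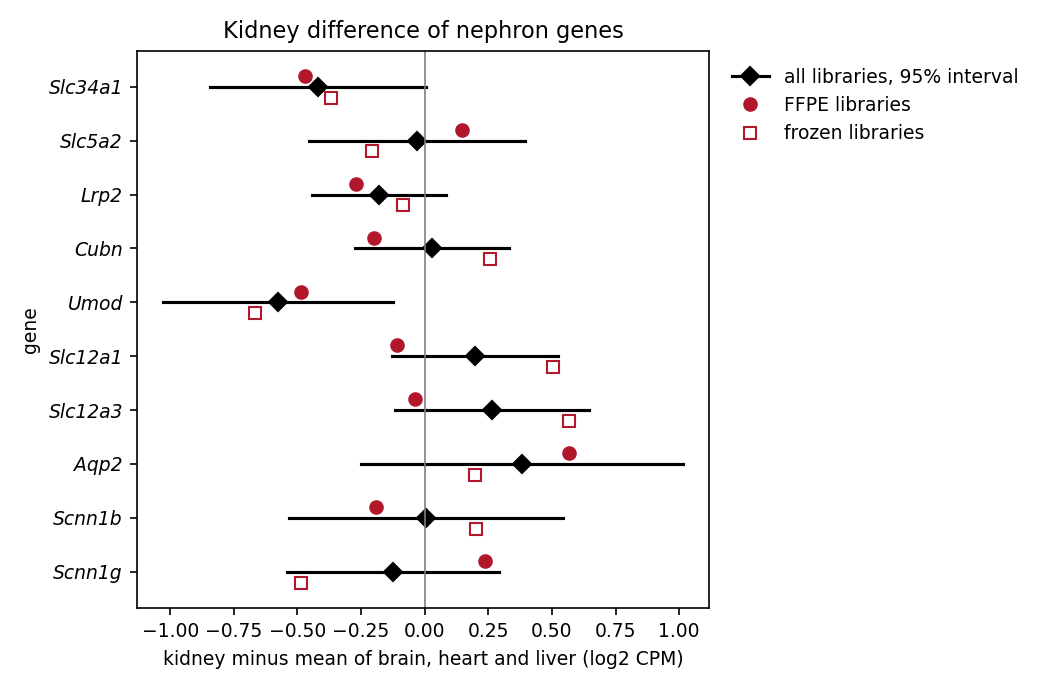
Kidney minus the mean of brain, heart and liver in log2 CPM (horizontal axis) for each gene in nephron order. Black diamonds and lines are the fit over all libraries with its 95% interval; red circles use the FFPE and open squares the frozen libraries alone. The interval of Umod, from -1.03 to -0.12, is the only 1 of the 10 that leaves out 0, and it is not adjusted for the number of genes.

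Umod encodes uromodulin, the protein that cells of the thick ascending limb shed into urine in large amounts (chromosome 7, 119462708 to 119479262). It had 34.3 CPM in FFPE and 27.5 CPM in frozen kidney, against 40.2 and 51.5 CPM in FFPE and frozen brain, 53.8 and 36.3 CPM in heart, and 50.9 and 44.3 CPM in liver. Both kidney libraries lay below all 6 others, with frozen heart nearest to them. These values rested on 72 and 90 reads in FFPE and frozen kidney and on 103 to 151 reads elsewhere. The exact Poisson 95% intervals were 26.6 to 42.8 CPM in FFPE kidney and 22.0 to 33.6 CPM in frozen kidney, so FFPE kidney overlapped the intervals of all the other libraries but FFPE heart (44.9 to 63.4 CPM).

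Umod had the largest kidney difference of the 10 genes, -0.57 ± 0.21 on the log2 scale (95% interval -1.03 to -0.12; 0.671-fold). It did not pass the threshold over all genes (limma unadjusted p = 0.0157, adjusted p = 0.163). The difference had the same sign in both preservations, -0.48 among FFPE and -0.67 among frozen libraries. In pairs of organs it was -0.57 against brain, -0.53 against heart and -0.63 against liver, with limma adjusted p of 0.143, 0.3 and 0.216. A kidney value below all 6 others in both libraries was found for 2 of the 10 genes, Umod and Lrp2, against 4.38% of all genes tested. None of the 10 had both kidney libraries above the 6 others, against 3.53% of all genes.

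Slc12a1 encodes NKCC2, the furosemide-sensitive salt transporter of the thick ascending limb (chromosome 2, 125152510 to 125230002). It had 123 CPM in FFPE and 184 CPM in frozen kidney, against 147 and 135 CPM in FFPE and frozen brain, 121 and 124 CPM in heart, and 131 and 129 CPM in liver. Frozen kidney was the highest library, and its exact Poisson interval of 169 to 199 CPM lay above those of the 7 others, whose upper bounds reached 161 CPM. These intervals cover counting error only. For the kidney difference, counting error alone gives an SE of 0.06, against 0.15 in the fit. FFPE kidney was level with heart. Slc12a1 had a kidney difference of 0.20 ± 0.15 (95% interval -0.13 to 0.52), made up of -0.11 among FFPE and 0.51 among frozen libraries.

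Slc12a3 encodes NCC, the thiazide-sensitive salt transporter of the distal convoluted tubule (chromosome 8, 94329109 to 94366222). It had 63.6 CPM in FFPE and 87.3 CPM in frozen kidney, against 61.7 and 49.0 CPM in FFPE and frozen brain, 65.3 and 64.8 CPM in heart, and 68.7 and 64.7 CPM in liver. Again frozen kidney was the highest library and FFPE kidney lay among the others. The kidney difference was 0.26 ± 0.18 (95% interval -0.12 to 0.65), with -0.04 among FFPE and 0.57 among frozen libraries.

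**Figure D3:**
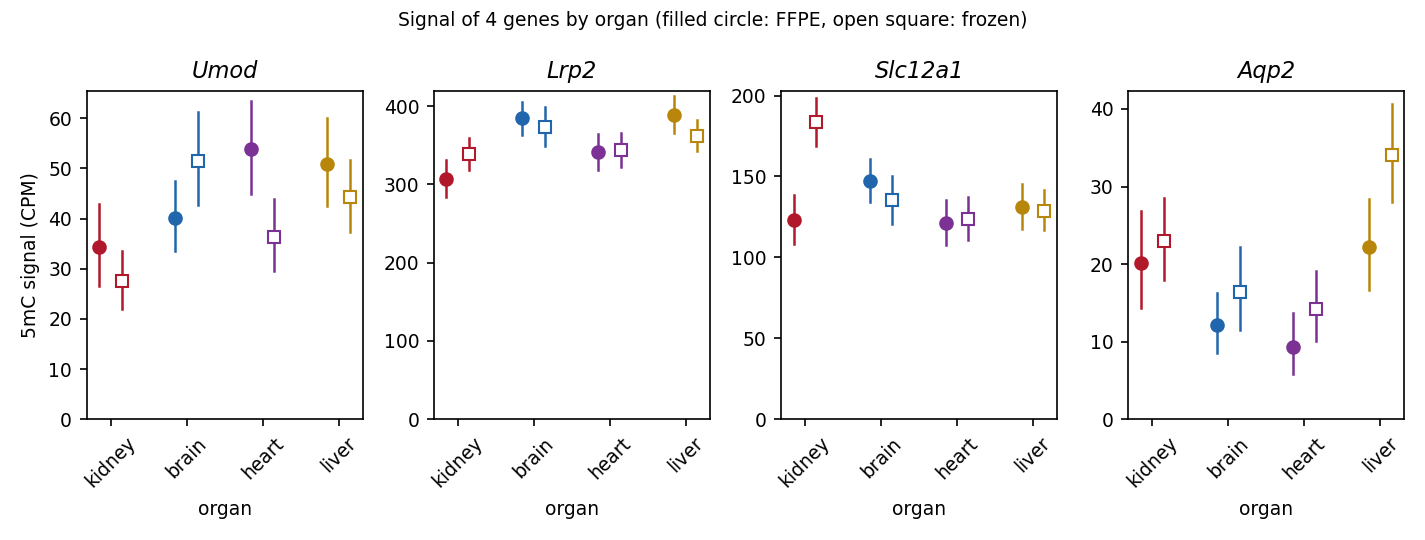
Signal in CPM (vertical axes, from 0) of Umod, Lrp2, Slc12a1 and Aqp2 in kidney, brain, heart and liver, with filled circles for FFPE and open squares for frozen libraries. Vertical lines are exact Poisson 95% intervals, which cover counting error only. Kidney is lowest for Umod, frozen kidney is highest for Slc12a1, and frozen liver is highest for Aqp2.

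In the collecting duct, Aqp2 encodes the water channel that vasopressin moves to the cell surface (chromosome 15, 99579056 to 99584545). It had the fewest reads of the 10 genes, 23 to 116 per library. Its signal was 20.1 CPM in FFPE and 22.9 CPM in frozen kidney, against 12.1 and 16.5 CPM in FFPE and frozen brain, 9.33 and 14.2 CPM in heart, and 22.2 and 34.0 CPM in liver. Both kidney libraries lay above those of brain and heart, FFPE liver lay between them and frozen liver above them. The kidney difference was 0.38 ± 0.30 (95% interval -0.25 to 1.02; limma adjusted p = 0.522), with 0.57 among FFPE and 0.20 among frozen libraries.

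Scnn1b and Scnn1g encode the beta and gamma subunits of ENaC, the amiloride-sensitive sodium channel, and are neighbours on chromosome 7 with 96555 bases between them (Scnn1g at 121734420 to 121768482, Scnn1b at 121865038 to 121918728). Scnn1b had 22.0 CPM in FFPE and 34.8 CPM in frozen kidney, against 25.8 and 42.7 CPM in FFPE and frozen brain, 29.2 and 35.3 CPM in heart, and 21.0 and 18.3 CPM in liver. Scnn1g had 58.8 CPM in FFPE and 43.9 CPM in frozen kidney, against 60.5 and 64.4 CPM in FFPE and frozen brain, 40.7 and 51.4 CPM in heart, and 50.6 and 70.2 CPM in liver. Liver was lowest for Scnn1b, with a brain minus liver difference of 0.76 ± 0.31 (limma adjusted p = 0.0769), whereas frozen liver was highest for Scnn1g. The kidney differences were 0.01 for Scnn1b (95% interval -0.53 to 0.54) and -0.13 for Scnn1g (-0.54 to 0.29). Across the 8 libraries the pair had a Pearson's r of -0.30, given as a description.

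The kidney differences of Slc5a2, Cubn and Scnn1b were small, at -0.03, 0.03 and 0.01. Their sign also changed without single libraries of other organs. It came to 0.08 for Slc5a2 and -0.12 for Scnn1b without frozen liver, and to -0.03 for Cubn without frozen heart. The sign of several kidney differences rested on the frozen kidney library. Kidney differences without that library are the same values as those among FFPE libraries alone. Without it, 6 of the 10 genes changed sign, to 0.15 for Slc5a2, -0.20 for Cubn, -0.11 for Slc12a1, -0.04 for Slc12a3, -0.19 for Scnn1b and 0.24 for Scnn1g. Umod and Slc34a1 stayed negative at -0.48 and -0.47. No kidney call was made with or without it.

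Of the 60 tests of a gene in a pair of organs, 1 passed the threshold, Aqp2 in heart against liver. Heart had 9.33 CPM (23 reads) in FFPE and 14.2 CPM (40 reads) in frozen tissue, against 22.2 CPM (58 reads) and 34.0 CPM (116 reads) in liver. Heart minus liver was -1.25 ± 0.37 (limma adjusted p = 0.0352), and 8.76% of all genes were lower in heart than in liver, 12.1% being called in either direction. The adjusted p became 0.0532 without frozen brain, 0.246 and 0.188 without FFPE and frozen heart, and 0.145 and 0.213 without FFPE and frozen liver. It was 0.134 with no trend of variance on mean signal, and 0.0115 without frozen kidney.

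The order of organs for Aqp2 was liver, kidney, brain and heart, from 4.78 to 4.42, 3.82 and 3.53 log2 CPM as organ means. No difference between neighbours in this order passed the threshold, at -0.36 ± 0.37 for kidney minus liver, 0.60 ± 0.37 for kidney minus brain, and 0.29 ± 0.37 for brain minus heart. In the other pairs of organs none of the 10 genes was called, while 16.1% of all genes were called between kidney and brain, 2.47% between kidney and heart, 1.9% between kidney and liver, 1.71% between brain and heart and 28.5% between brain and liver.

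No difference between FFPE and frozen tissue over the 4 organs passed the threshold for any of the 10 genes (limma). At an unadjusted p under 0.05 there were 0 of 10, against 10.7% of all genes. Over all genes 1.35% were called, 0.62% higher and 0.735% lower in FFPE tissue. The differences were negative for 9 of the 10 genes, with a median of -0.12, against 0.02 over all genes. Within single organs, 7 of the 10 were negative in kidney, 6 in brain, 6 in heart and 5 in liver. Their medians were -0.30, -0.10, -0.02 and -0.09 in that order. Over the 4 organs, Lrp2 lay at only -0.001 ± 0.11 and Slc12a3 at -0.01 ± 0.16. Aqp2 had the lowest, -0.47 ± 0.26 (95% interval -1.01 to 0.08; adjusted p = 0.554), and was lower in FFPE tissue in each of the 4 organs. Scnn1b was at -0.36 ± 0.22 and Slc34a1 at -0.32 ± 0.17, each lower in FFPE tissue in 3 of 4 organs. Umod was the exception at 0.18 ± 0.18, with a higher value in FFPE kidney, heart and liver and a lower one in FFPE brain.

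**Figure D4:**
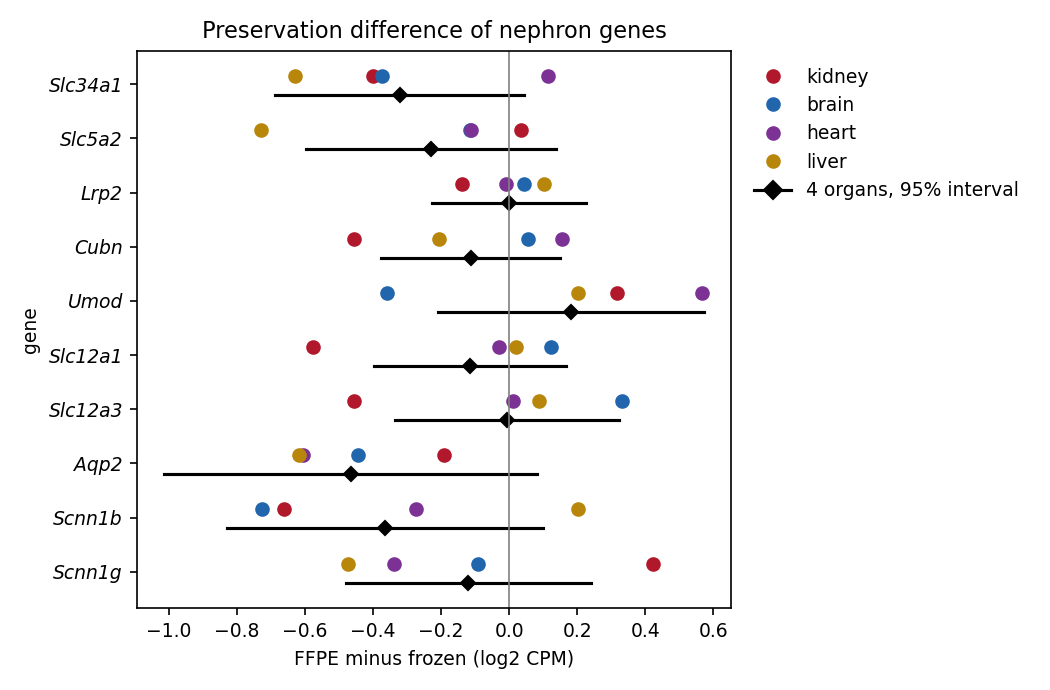
FFPE minus frozen signal in log2 CPM (horizontal axis) for each gene in nephron order. Coloured points are the 4 organs, and black diamonds with lines are the fit over the organs with its 95% interval. All 10 intervals hold 0, and the kidney points run from -0.66 for Scnn1b to 0.42 for Scnn1g.

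Across the 8 libraries the 10 genes did not follow 1 shared profile. Of the 45 pairs of genes, 24 had a positive Pearson's r, with a median of 0.06. The values ran from -0.63 for Umod with Slc12a3 to 0.77 for Cubn with Slc12a1, and the genes share libraries and scaling. The 5 other genes whose profile was most like the mean of the 10 were Pde3a (r = 0.938), Ifit3 (0.936), Tpbg (0.933), Anxa11 (0.925) and Gnb3 (0.895), among genes with at least the median signal. They were picked for the highest r over only 8 libraries, so high values follow from the picking. That mean profile ran only from -0.14 in FFPE kidney to 0.15 in frozen liver on the log2 scale. Lrp2 ranged over 0.34 on the log2 scale, against a median range of 0.96 for 60 genes whose mean signal lay within 0.25 of its own, and Cubn over 0.46, against 1.06 for 403 genes. Aqp2 ranged over 1.87, against 1.54 for 2344 genes.

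Genes of the same segments were set beside them. Of 84 further nephron and podocyte genes (25 of the proximal tubule, 25 of the loop of Henle and distal convoluted tubule, 22 of the collecting duct and 12 of podocytes, the filter cells of the glomerulus), 2 were higher and 0 lower in kidney by limma, where 0.897% and 0.566% of all genes were. The differences were negative for 53 and positive for 31, but negative for 39 of the 84 without FFPE kidney. An unadjusted limma p under 0.05 was reached by 21 (25%), against 18.6% of all genes. By list this was 16% for the proximal tubule, 16% for the loop and distal tubule, 45.5% for the collecting duct and 25% for podocytes. The median difference was -0.19 for proximal tubule genes, -0.09 for those of the loop and distal tubule, -0.22 for the collecting duct and 0.23 for podocytes, against -0.02 over all genes. Among FFPE libraries alone, that is without frozen kidney in the comparison, the medians were -0.19, -0.19, -0.08 and 0.19 in the same order. Among frozen libraries alone they were 0.01, 0.02, -0.20 and 0.23. Both kidney libraries lay below all others for 7 of the 84 genes (8.33%), against the 4.38% given above. They lay above all others for 3 of the 84, against 3.53% of all genes.

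Amn, which encodes amnionless, the protein that anchors cubilin in the membrane, was higher in kidney. It had 39.9 CPM (84 reads) in FFPE and 31.7 CPM (104 reads) in frozen kidney, against 21.1 and 25.6 CPM in FFPE and frozen brain, 7.35 and 9.30 CPM in heart, and 8.90 and 3.07 CPM in liver. Both kidney libraries lay above the 6 others, with brain nearest. Its kidney difference was 1.83 ± 0.40 (limma adjusted p = 0.0379), 1.84 among FFPE and 1.82 among frozen libraries. Amn and Cubn, whose proteins form 1 receptor, thus stood at 1.83 and 0.03 in the same comparison.

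The call of Amn rested on single libraries, while its difference moved little. It was 1.70 without FFPE brain. The 1.84 without frozen kidney is the difference among FFPE libraries again, not a further check. Calls over all genes also changed with single libraries left out, as given at the end. Amn kept its call without FFPE kidney and without FFPE liver, and without each of the other libraries the limma adjusted p lay between 0.0594 and 0.154. The call was also lost with array weights (0.138), with no variance trend (0.294) and with no filter on low values (0.0635).

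Among the other receptor partners in the proximal tubule, Lrpap1, the chaperone of megalin, was at 0.32 ± 0.33 (-0.05 among FFPE and 0.68 among frozen libraries) and Dab2, its endocytic adaptor, at -0.06 ± 0.16. Slc5a1, the second glucose transporter, was at 0.18 ± 0.19 (-0.08 among FFPE and 0.43 among frozen libraries). Slc34a3, another phosphate cotransporter, was at -1.43 ± 0.46 with 7 and 15 reads in FFPE and frozen kidney, against 12 to 51 reads elsewhere (limma adjusted p = 0.12). None of these 4 was called. In FFPE against frozen tissue, Slc2a2, the glucose transporter of the basolateral membrane and of liver, was the 1 gene of the 84 called, at 0.52 (adjusted p = 0.0411 by limma), where 1.35% of all genes were called.

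In the loop and distal tubule, Kcnj1, the potassium channel that recycles potassium for NKCC2, was at -0.45 ± 0.22 (-0.30 among FFPE and -0.60 among frozen libraries). The kinase genes that control NCC were at -0.50 ± 0.21 for Wnk4 and 0.20 ± 0.14 for Stk39, and Klhl3, which marks WNK kinases for degradation, was at 0.26 ± 0.15 (0.37 among FFPE and 0.15 among frozen libraries). Fxyd2, a subunit of the sodium pump, had the lowest difference of the 84 genes, -1.72 ± 0.64 (limma adjusted p = 0.163), with 22 reads in FFPE and 4 reads in frozen kidney, against 15 to 64 reads elsewhere. It was 0.01 among FFPE and -3.46 among frozen libraries, so the value rested on frozen kidney. None of these 5 genes passed the threshold.

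In the collecting duct, Scnn1a, the alpha subunit of ENaC, was at -0.97 ± 0.29 (limma adjusted p = 0.0945). It had 52.2 CPM (110 reads) in FFPE and 15.6 CPM (51 reads) in frozen kidney. FFPE and frozen brain had 40.2 and 41.9 CPM, heart 57.8 and 44.0 CPM, and liver 76.7 and 95.4 CPM. FFPE kidney thus lay above both brain libraries and frozen heart. Its kidney difference was -0.11 among FFPE and -1.84 among frozen libraries, and frozen kidney was the lowest of the 8 libraries in CPM. The 3 ENaC subunit genes thus stood at -0.97, 0.01 and -0.13 for Scnn1a, Scnn1b and Scnn1g, and none was called.

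Aqp3, the water channel on the basolateral side of the cells that use Aqp2, was at -1.14 ± 0.29 (limma adjusted p = 0.0581), with 33 and 30 reads in FFPE and frozen kidney, against 59 to 102 reads elsewhere. It was lower in kidney in both preservations, at -0.72 among FFPE and -1.57 among frozen libraries. Hsd11b2, which protects the mineralocorticoid receptor from glucocorticoids, was at -1.39 ± 0.43 (adjusted p = 0.107 by limma), with -0.74 among FFPE and -2.05 among frozen libraries. Nr3c2, that receptor, was at 0.52 ± 0.16 and Nedd4l, the ligase that removes ENaC from the membrane, at 0.39 ± 0.16. Among FFPE libraries alone they stood at 0.23 and 0.05, and among frozen libraries at 0.82 and 0.73. Avpr2, the vasopressin receptor, had 6 to 26 reads per library and a difference of 0.58 ± 0.54.

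Lists of 10 genes for the main cell type of the other organs were set beside the nephron lists, each in its own organ. They and the nephron lists were chosen with earlier results of these data known, so their counts are descriptions. Hepatocyte genes were lower in liver for 9 of 10, with a median of -1.45, where 7.42% of all genes were lower. Neuron genes were lower in brain for 5 of 10 (median -0.67), where 12.8% of all genes were lower, and cardiomyocyte genes were lower in heart for 4 of 10 (median -0.75), where 1.97% were lower. For the 10 nephron genes the count lower in kidney was 0 of 10 with a median of -0.01, where 0.566% of all genes were lower. That count lies near the share over all genes. Under quantile normalization the counts were 8, 5, 3 and 0, in the order named. With no trend of the variance all were 0. The cardiomyocyte count was 0 without either heart library, 1 without FFPE liver and 7 with array weights, and the neuron count was 2 without frozen brain. The 4 comparisons share their libraries and differ in how many genes they call, so a difference between the lists was not tested.

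**Figure D5:**
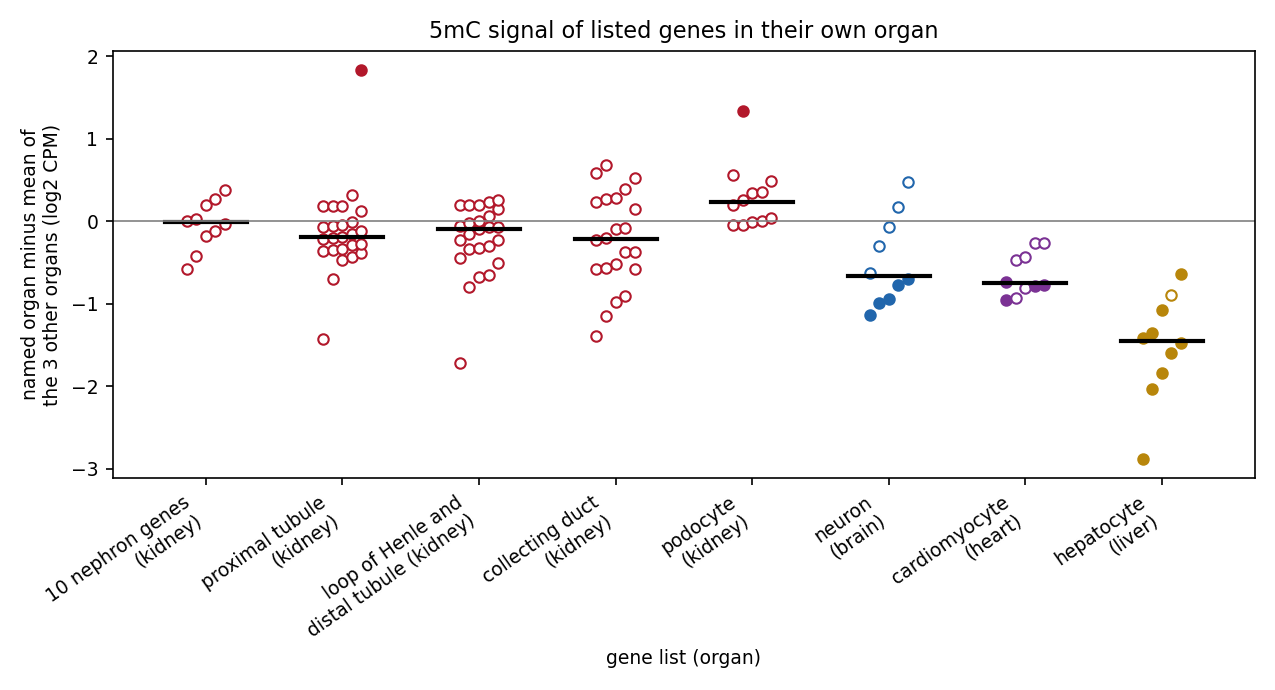
Difference of each listed gene between the organ named under its list and the mean of the 3 other organs, in log2 CPM (vertical axis). Points are genes, filled where the limma adjusted p was under 0.05, and black bars are list medians. The hepatocyte list lies lowest in its organ, at a median of -1.45, and the 10 nephron genes centre on -0.01.

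Markers of other cells that kidney tissue holds were looked at in the same way. Over all genes 1.46% were called in kidney by limma, with a median difference of -0.02. Of 10 endothelial genes none was called in kidney, which lies near that share, with a median of 0.11. Of 10 leukocyte genes none was called, 9 were negative and the median was -0.37, with -0.07 among FFPE and -0.75 among frozen libraries. These are 5mC values and do not count cells. Their part in the values of the 10 genes was not tested.

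Reads of neighbouring genes could enter some values, since how overlaps and strands were counted is not stated in the labels. Slc34a1 overlaps Pfn3 by 8 bases and lies 3262 bases from F12, the gene of coagulation factor XII. F12 had 18.2 CPM in FFPE and 12.3 CPM in frozen kidney, against 118 and 91.6 CPM in FFPE and frozen liver and 12.8 to 22.8 CPM in brain and heart. Its kidney difference was -1.15 (limma adjusted p = 0.0322) and its heart minus liver difference -2.69. Slc34a1 had 35.8 and 55.4 CPM in FFPE and frozen liver, within the range of the other libraries, and a heart minus liver difference of -0.08. Slc5a2 overlaps Rusf1 by 1052 bases, and Aqp2 lies wholly inside the predicted gene Gm34765, which has no row of its own in the table. Predicted genes also overlap Cubn, Slc12a1 and Scnn1g. Aqp5, 6482 bases from Aqp2, had a heart minus liver difference of -0.11, against -1.25 for Aqp2. Gp2 lies 3435 bases from Umod and had a kidney difference of -1.47 (limma adjusted p = 0.128). It had 2.13 and 5.62 CPM in FFPE and frozen kidney, against 5.87 to 26.5 CPM elsewhere. Pdilt, 7323 bases from Umod on the other side, was at 0.02. Nup93, 1008 bases from Slc12a3, was at 0.32. Whether reads of these neighbours entered the values of Umod or Slc12a3 was not tested.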

How the data were processed

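The labels list 32 samples in 16 groups of 2, of which 16 samples are 5mC precipitates and 16 are Input DNA. Reads were aligned to mm10 with Bowtie2, counted with featureCounts and normalised with limma, per the submitters' processing notes; the counted feature and strand are not stated there. The deposited table holds log2 CPM values in 8 columns, made by the authors with 0.5 added to each count. Its column names carry neither antibody nor replicate number, and the columns were read as 5mC. Whether a column pools replicates is unknown, and Input was not analysed here. All 217432 values stepped back to whole reads (tolerance 1e-04), which gave depths and Poisson intervals.

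From these values an organ plus preservation model was fitted in limma 3.58.1 (R 4.3.3), with a variance trend (3 residual and 13.1 prior degrees of freedom). A gene was tested if 2 or more libraries reached 1 CPM, which kept 25982 and removed 1197. Benjamini-Hochberg adjustment was run per comparison, with a threshold of 0.05. With 1 library per group, the error measures how organ differences change with preservation, and p-values cover the spread between libraries, which may be technical. Values within 1 preservation or organ have no test. The fit was tested on simulated data. Gene positions and promoters came from RefSeq GRCm38.p6, the assembly behind mm10, which placed 93.0% of genes.

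Members and lists were chosen with earlier results of these data known. Named were the 10 genes, called genes of the nephron lists, genes of most similar profile and neighbouring genes by rule. Some listed genes counted in the totals are not reported here by name. The other partner genes were chosen from the lists for their roles, after values were seen. Alternatives were quantile normalization, median centring, no filter, 2 reads added, voom weights, array weights, no variance trend and each library left out.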

Additional observations from a re-analysis of the deposited data

Results flagged for a closer look

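Cubn was marked because its kidney values went opposite ways in the 2 preservations. FFPE kidney had 165 CPM, below FFPE brain (209), heart (194) and liver (167), while frozen kidney had 226 CPM, above frozen brain (202), heart (175) and liver (192). The kidney difference was -0.20 among FFPE and 0.26 among frozen libraries, and the first minus the second was -0.458 on the log2 scale. The difference was not tested, since each group has 1 library. Of 20 sets of values of the 10 genes examined for a library far from the rest (4 FFPE or 4 frozen libraries each), 0 were marked.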

How the results depend on the processing

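No paired analysis was possible because the columns carry no replicate number. The count of the 10 genes called in kidney or in FFPE tissue was 0 under each of the 15 alternatives. Calls for the 10 genes in pairs of organs (1 as reported) numbered 10 under quantile normalization and 2 with median centring. They numbered 3 with voom weights, 3 with array weights and 0 with no variance trend, and changed with 1 library left out. The 10 fell in kidney against brain, brain against liver and heart against liver, where 13.4%, 21.3% and 5.97% of all genes were called. With median centring, voom weights and array weights, calls fell in brain against liver and in heart against liver. In the first pair 31.1%, 31.8% and 36.3% of all genes were called, and in the second 16.2%, 13.1% and 19.5%. The 84 nephron list genes called higher in kidney (2 as reported) numbered 1 with no filter, 5 with voom weights, 0 with array weights, 0 with no variance trend and 0 to 7 with 1 library left out. Those called lower (0 as reported) numbered 1 under quantile normalization, 2 with 2 reads added, 1 with voom weights and 0 to 8 with 1 library left out, the 8 without FFPE kidney.

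Reversed kidney differences, none past the threshold, were Slc5a2 at 0.0014 with centring, and Cubn at -0.17 and Scnn1b at -0.0595 under quantile normalization. Reversed FFPE differences were Lrp2 at 0.016 with centring, 0.0066 with voom weights and 0.016 with array weights, and Slc12a3 at 0.011 with centring and 0.076 with array weights. With 1 library left out, the ranges that crossed 0 were, for the kidney difference, Slc5a2 -0.21 to 0.15, Cubn -0.201 to 0.26, Slc12a1 -0.11 to 0.51, Slc12a3 -0.036 to 0.57, Scnn1b -0.19 to 0.203 and Scnn1g -0.49 to 0.24, and for the FFPE difference, Lrp2 -0.036 to 0.045, Cubn -0.202 to 0.0014, Slc12a1 -0.19 to 0.039 and Slc12a3 -0.12 to 0.14. The cause was not tested. Over all genes, calls higher and lower in kidney (233 and 147) numbered 0 and 0 with no variance trend, 750 and 82 with voom weights, 1522 and 2264 without FFPE kidney and 24 and 60 without frozen kidney. Array weights gave each kidney library 0.496, the lowest of the organs. Depth limits Aqp2 most, with 23 to 116 reads, and the single library per group limits every comparison.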
